A study of Mus musculus with 21 samples.

Results

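The genes whose symbols start with Kcn in the array's annotation encode potassium channel subunits, their accessory proteins and a few non-coding RNAs named after them. There were 84 such symbols, read by 167 probe sets, among 18193 genes with a probe set naming a single gene. Where a gene had several probe sets, the brightest one stood for it. Of the 84 genes, 47 passed the filter on low signal, which kept genes with a mean of at least 4.35 on the log2 scale, and were tested among 13279 genes. The other 37 had mean levels of 2.28 to 4.33 and were left out of the main test. The highest of these was Kcnmb1 at 4.33, and the lowest tested member was Kcna1 at 4.39.

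The study asked how mouse hearts with less GATA4, a transcription factor of heart muscle, differ at rest and under pressure overload. Total RNA of 21 samples, whose source is labelled as cardiac myocytes, was measured on expression arrays in 4 groups. Wild-type mice had a sham operation (n = 4) or transverse aortic constriction, called TAC, a surgical narrowing of the aorta that loads the left ventricle (n = 6). G4D mice, a gene-targeted line heterozygous for a deletion allele of Gata4, had the sham operation (n = 5) or TAC (n = 6). Sham surgery did not touch the vessel. All cells of a G4D animal carry the allele. Age, strain background and time after surgery are not given in the sources used here. Nothing states that replicates came from separate animals, so p-values measure only the spread between these samples.

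Potassium channels let potassium leave the heart muscle cell and so end the action potential and hold the resting potential. In mouse ventricle, fast repolarization rests on the transient outward current, whose pore subunits come from Kcnd2 and Kcnd3 and whose partner protein comes from Kcnip2. Delayed rectifiers, inward rectifiers and background channels carry the rest, and loss of the transient outward current is a widely described feature of hypertrophied and failing hearts. The G-protein-gated channel of Kcnj3 and Kcnj5, which slows the heart in response to acetylcholine, is known chiefly from the atria and the sinus node.

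Promoter sequences are shown for the members that led the results and had an entry in RefSeq's table for GRCm38.p6, because the altered gene encodes a factor that binds GATA sites. Each runs 5′ to 3′ on the gene's strand from 250 bases before the start to 50 after it. Capitals mark a GATA site, searched on both strands as AGATAA, in the form ending in G as AGATAG, and in the forms beginning with T as TGATAA if ending in A and as TGATAG if ending in G. The windows are chr6:21215096-21215395 on the plus strand for Kcnd2, chr19:45816014-45816313 on the minus strand for Kcnip2, chr2:55435720-55436019 on the plus strand for Kcnj3 and chr9:32344295-32344594 on the minus strand for Kcnj5.
Kcnd2: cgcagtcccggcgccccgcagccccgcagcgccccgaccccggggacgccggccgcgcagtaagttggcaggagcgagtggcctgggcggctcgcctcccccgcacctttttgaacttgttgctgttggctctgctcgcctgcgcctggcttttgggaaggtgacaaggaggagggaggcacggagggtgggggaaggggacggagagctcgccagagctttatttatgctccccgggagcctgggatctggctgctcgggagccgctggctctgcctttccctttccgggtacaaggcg
Kcnip2: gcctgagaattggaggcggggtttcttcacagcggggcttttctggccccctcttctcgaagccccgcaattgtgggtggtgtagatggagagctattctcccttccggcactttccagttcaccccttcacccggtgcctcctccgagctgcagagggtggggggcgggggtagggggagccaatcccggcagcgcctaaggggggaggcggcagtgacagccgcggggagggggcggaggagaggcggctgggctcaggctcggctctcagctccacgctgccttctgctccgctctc
Kcnj3: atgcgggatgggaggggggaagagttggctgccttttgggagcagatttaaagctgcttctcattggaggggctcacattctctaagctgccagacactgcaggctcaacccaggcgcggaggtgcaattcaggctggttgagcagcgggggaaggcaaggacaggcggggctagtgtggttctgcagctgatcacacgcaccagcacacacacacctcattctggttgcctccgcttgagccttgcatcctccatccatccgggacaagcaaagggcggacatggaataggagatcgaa
Kcnj5: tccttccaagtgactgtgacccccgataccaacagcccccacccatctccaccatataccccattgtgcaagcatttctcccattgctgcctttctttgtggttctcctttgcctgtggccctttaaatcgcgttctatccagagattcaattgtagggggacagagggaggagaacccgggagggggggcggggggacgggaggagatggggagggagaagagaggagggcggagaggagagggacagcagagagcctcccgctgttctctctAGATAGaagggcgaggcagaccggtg
Only Kcnj5 among these 4 windows held a match, AGATAG, beginning at base 275 of the 300. Among all 32851 promoters of the same length in the table, 29.8% held at least 1 match. Among the potassium channel genes with an entry (89 promoters of 64 genes), the share was 23.6%. Of the 9 members with an entry that were called in any comparison, 3 held a match: Kcna7, Kcnj5 and Kcnq1ot1. A match describes these letters in this window and shows no binding.

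The deposited array medians spanned 4.31 to 5.33, and on the deposited values every array correlated with the rest of its group at 0.912 or more. Gata4 itself averaged 8.11 ± 0.15 (SD, n = 4) in wild-type sham and 7.85 ± 0.09 (n = 5) in G4D sham. After TAC it averaged 7.80 ± 0.23 in wild type and 7.97 ± 0.18 in G4D (n = 6 each). Neither genotype difference passed limma's test (adjusted p = 0.612 and 0.552), and whether the probes lie in the targeted part was not known, so Gata4 did not check the labels. The 8 cardiomyocyte markers had array means of 12.36 to 12.41 in wild-type sham, 12.31 to 12.38 in wild-type TAC, 12.32 to 12.40 in G4D sham and 12.24 to 12.36 in G4D TAC. With TAC, 2 of the 8 fell in G4D and 0 in wild type: Tnni3 by 0.21 (limma, adjusted p = 0.029) and Pln by 0.20 (adjusted p = 0.0431). Fibroblast, endothelial and macrophage lists were also above the filter in full, so RNA of other cell types was present. Fibroblast markers averaged 9.10 to 9.19 in wild-type sham, 9.46 to 10.3 in wild-type TAC, 9.00 to 9.67 in G4D sham and 9.77 to 10.5 in G4D TAC. Of 7 fibroblast markers, 4 rose with TAC in each genotype, as did 4 of 6 macrophage markers in wild type and 5 of 6 in G4D. In 2 arrays atrial markers stood apart: they averaged 11.3 in G4D sham sample 5 and 7.90 in G4D TAC sample 6, against at most 6.75 elsewhere, with Sln below the filter. G4D sham sample 5 also had the highest adipocyte mean, 10.1 against 3.56 to 7.75 elsewhere, with Adipoq below the filter. Its smooth muscle and pericyte mean, 8.48, was the highest of all arrays, and its fibroblast mean, 9.67, the highest of its group. The 3′ to 5′ difference of actin probes was 0.417 to 0.631 in wild-type sham, 0.148 to 0.464 in wild-type TAC, 0.357 to 0.588 in G4D sham and 0.178 to 0.437 in G4D TAC. The part of these markers and of RNA quality in the results below was not tested, except where a value without an array is given.

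The comparison of TAC with sham asked which channel genes respond to pressure overload in each genotype. In wild type, 3 of 47 tested members fell and 0 rose (Kcnv2, Kcnk3 and Kcnd2), at an adjusted p under 0.05 in limma. Over all genes tested, 7.35% were called in either direction and 2.16% fell, so the total share of members, 6.38%, was near that background. In G4D, 10 of 47 members fell and 1 rose. The background in G4D was 22.5% in either direction, 13.1% higher and 9.36% lower, against 23.4% of members in either direction and 21.3% lower. The members' share of calls was thus near that of all genes, while the calls among them were mostly downward. Over the 47 members the median log2 fold change was -0.13 in wild type and -0.21 in G4D, against -0.02 over all genes in both. In wild type 34 of the 47 members (72.3%) had a value below 0, against 54.7% of all genes, and in G4D 33 (70.2%), against 53.8%. The TAC samples of 6 members lay below all sham samples in wild type (12.8%, against 4.16% of all genes), as did those of 5 members in G4D (10.6%, against 3.38%). The wild-type and G4D comparisons share no arrays, but all arrays were normalized together and share 1 estimate of the spread. Kcnv2 and Kcnd2 were called in both. All 10 members that fell in G4D had a wild-type log2 fold change below 0, from -1.22 to -0.16. How often this held over all genes that fell in G4D was not computed, so it is a description. Fewer cells of a type and less RNA per cell cannot be told apart in such bulk samples.

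**Figure D1:**
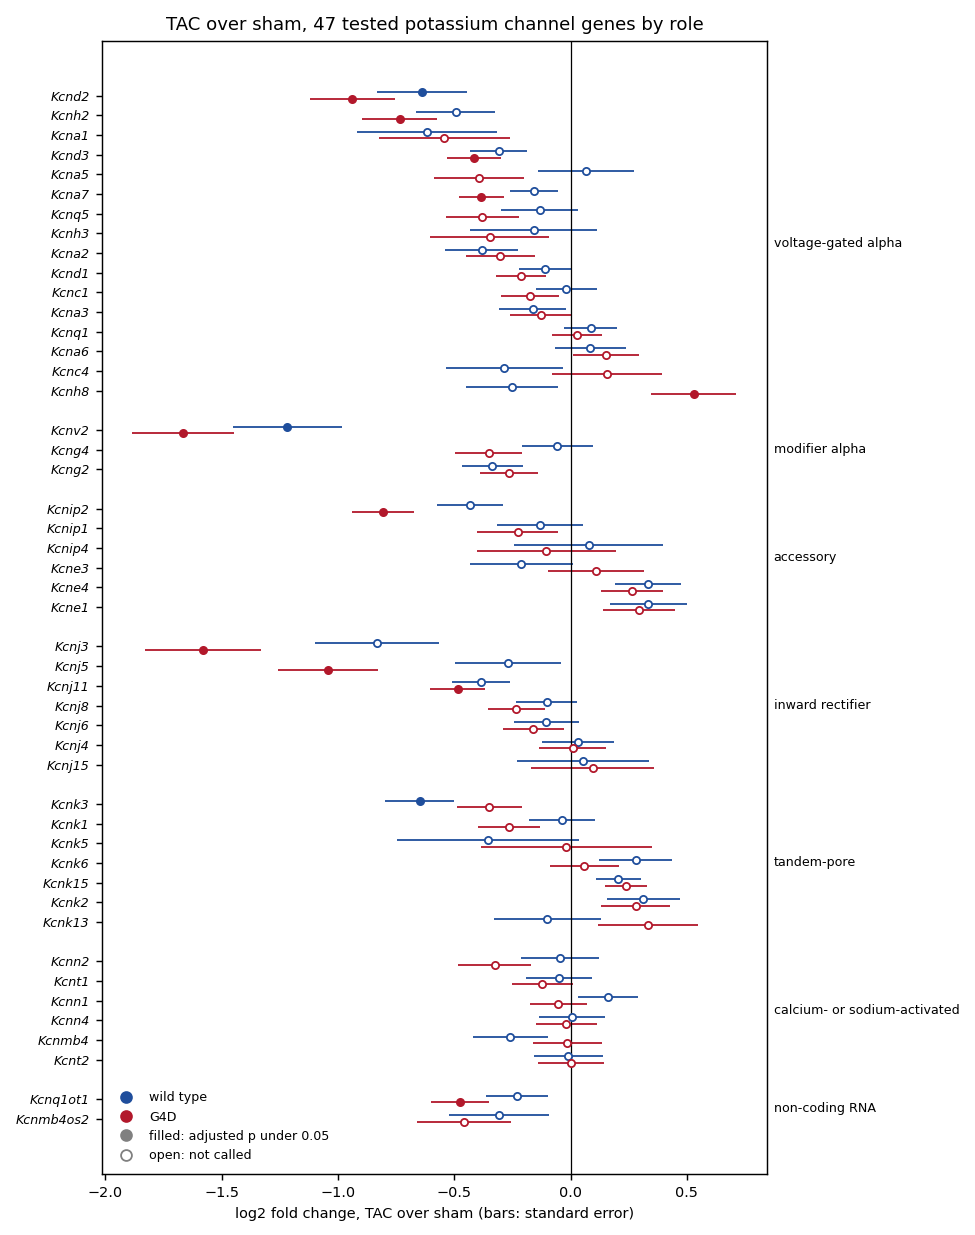
Log2 fold change of TAC over sham for the 47 tested potassium channel genes, by role, in wild type and in G4D; bars are standard errors and filled points passed an adjusted p of 0.05 in limma. Kcnv2 is lowest in both genotypes (-1.22 and -1.66), and Kcnh8 is the 1 gene called higher (0.53 in G4D).

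Of the 16 tested voltage-gated pore subunits, 1 fell in wild type, and 4 fell and 1 rose in G4D. Over all genes, 2.16% fell in wild type, and 9.36% fell and 13.1% rose in G4D. Counts by role rest on few genes, and differences between roles were not tested. Kcnd2, the main pore subunit of the fast transient outward current, fell in both genotypes. Its log2 level was 7.07, 7.33, 7.48 and 7.51 in the wild-type sham samples, and 6.54 to 6.96 with a median of 6.68 after TAC. In G4D it was 6.27, 6.88, 7.23, 7.24 and 7.36 after sham operation, and 5.57 to 6.53 with a median of 5.99 after TAC. Every wild-type TAC sample lay below every wild-type sham sample, whereas the lowest G4D sham sample lay within the G4D TAC range. The log2 fold change was -0.64 ± 0.19 (SE) in wild type (limma, adjusted p = 0.0483) and -0.94 ± 0.18 in G4D (adjusted p = 0.000782). The wild-type call was near the threshold and was lost on leaving out any of 15 of the 21 arrays, 9 of them in the groups compared, with values of -0.73 to -0.58. Its other probe sets above the filter gave -0.43 and -0.67 in wild type and -0.75 and -0.85 in G4D. The remaining probe set, far under the filter, was at 1.47 ± 1.77 in wild type and -2.17 ± 1.66 in G4D.

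Kcnd3, which encodes another pore subunit of that current, fell by 0.41 ± 0.12 on the log2 scale in G4D (limma, adjusted p = 0.0127). Its samples overlapped, at 6.14 to 6.71 in sham and 5.83 to 6.42 after TAC. Of its 3 other probe sets, the 1 above the filter gave -0.44 and those under it 0.59 and -0.076. In wild type its log2 fold change was -0.31 ± 0.12 (adjusted p = 0.15). Kcnip2, whose calcium-binding protein joins these pore subunits and brings them to the membrane, was the 1 accessory subunit of 6 tested that fell in G4D. Its log2 level was 9.75, 10.01, 10.21, 10.23 and 10.30 in G4D sham, and 9.03 to 9.88 with a median of 9.21 after TAC. A single TAC sample, at 9.88, lay above the lowest sham sample, and the other 5 lay below them all. The log2 fold change was -0.81 ± 0.13 in G4D (limma, adjusted p = 0.00018), or 1.75-fold lower. In wild type the level was 9.99, 10.03, 10.16 and 10.16 in sham and 9.45 to 9.86 after TAC, with a median of 9.64. Those wild-type groups did not overlap, but the change of -0.43 ± 0.14 missed the threshold (limma, adjusted p = 0.0719). The wild-type change passed with an intensity trend and robust prior (limma, adjusted p = 0.0474) and with array weights (adjusted p = 0.0359). It also passed without G4D TAC sample 4 (limma, adjusted p = 0.0185). Its other probe sets gave -1.30 and -0.26 in G4D, so the size depended on the probe set.

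Kcnh2, the pore subunit of the rapid delayed rectifier, was lower after TAC in G4D. Its level was 7.96, 8.02, 8.04, 8.07 and 8.26 in G4D sham, and 6.99 to 8.10 with a median of 7.20 after TAC. A single TAC sample reached the sham range. The change was -0.73 ± 0.16 in G4D (limma, adjusted p = 0.00219). In wild type it was 8.06, 8.10, 8.22 and 8.51 in sham and 7.32 to 7.97 after TAC, with a median of 7.83. These groups did not overlap, and the change of -0.49 ± 0.17 was not called (limma, adjusted p = 0.0889). The wild-type change passed with array weights (limma, adjusted p = 0.0356) and without G4D TAC sample 4 (adjusted p = 0.0171). Kcna7, a shaker-type subunit of striated muscle, fell by 0.38 ± 0.10 in G4D (limma, adjusted p = 0.00673), from 9.80 to 10.13 in sham to 9.41 to 9.75 after TAC, without overlap. This was the 1 called change whose sign turned with the scaling: it was 0.045 on the values as deposited, where the median of all genes was 0.31. Kcna5, a pore subunit of the ultrarapid delayed rectifier, was at 0.07 ± 0.21 in wild type and -0.39 ± 0.19 in G4D (limma, adjusted p = 0.155), neither called. Kcna1, a shaker-type subunit best known from neurons, was at -0.62 ± 0.30 in wild type (limma, adjusted p = 0.258).

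Kcnh8, an ether-a-go-go-like subunit known mainly from the brain, was the single member that rose. It was at 3.94, 4.05, 4.17, 4.25 and 4.49 in G4D sham, and at 4.55 to 5.10 with a median of 4.63 after TAC. All TAC samples lay above all sham samples, but the sham mean of 4.18 was below the level of the filter. Its mean over all arrays, 4.43, was close to the filter's 4.35, and G4D TAC, at 4.71, was its highest group. Kcnh8 thus passed the filter with the help of the group where it was called higher. The change was 0.53 ± 0.18 (limma, adjusted p = 0.044), and the call was lost without any of 11 of the 21 arrays (0.45 to 0.61 over the 21). With no filter the call was also lost (limma, adjusted p = 0.0691). So it was with an intensity trend and robust prior (limma, adjusted p = 0.0512) and with array weights (adjusted p = 0.104). Leaving out both arrays of high atrial markers ended it too (limma, adjusted p = 0.0989). In wild type the level was 4.14, 4.47, 4.68 and 4.87 in sham and 3.74 to 4.90 after TAC, with a median of 4.20. Those groups overlapped, and the change was -0.25 ± 0.20 (limma, adjusted p = 0.529).

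Kcnv2 encodes a silent subunit that forms no channel alone and modifies other voltage-gated subunits, and it showed the largest change of the 47 members in both genotypes. Its level was 5.87, 6.33, 6.39 and 6.39 in wild-type sham, and 4.54 to 5.51 with a median of 5.14 after TAC. In G4D it was 5.80, 5.97, 6.19, 6.19 and 6.22 in sham, and 3.62 to 5.19 with a median of 4.47 after TAC. In neither genotype did sham and TAC samples overlap. The log2 fold change was -1.22 ± 0.23 in wild type (limma, adjusted p = 0.00265) and -1.66 ± 0.22 in G4D (adjusted p = 1.71e-05), or 2.32-fold and 3.17-fold lower. Both calls held with each of the 21 arrays left out. Kcng4 and Kcng2, the other tested silent subunits, were at -0.35 ± 0.14 in G4D (limma, adjusted p = 0.084) and -0.34 ± 0.13 in wild type (adjusted p = 0.147), neither called.

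**Figure D2:**
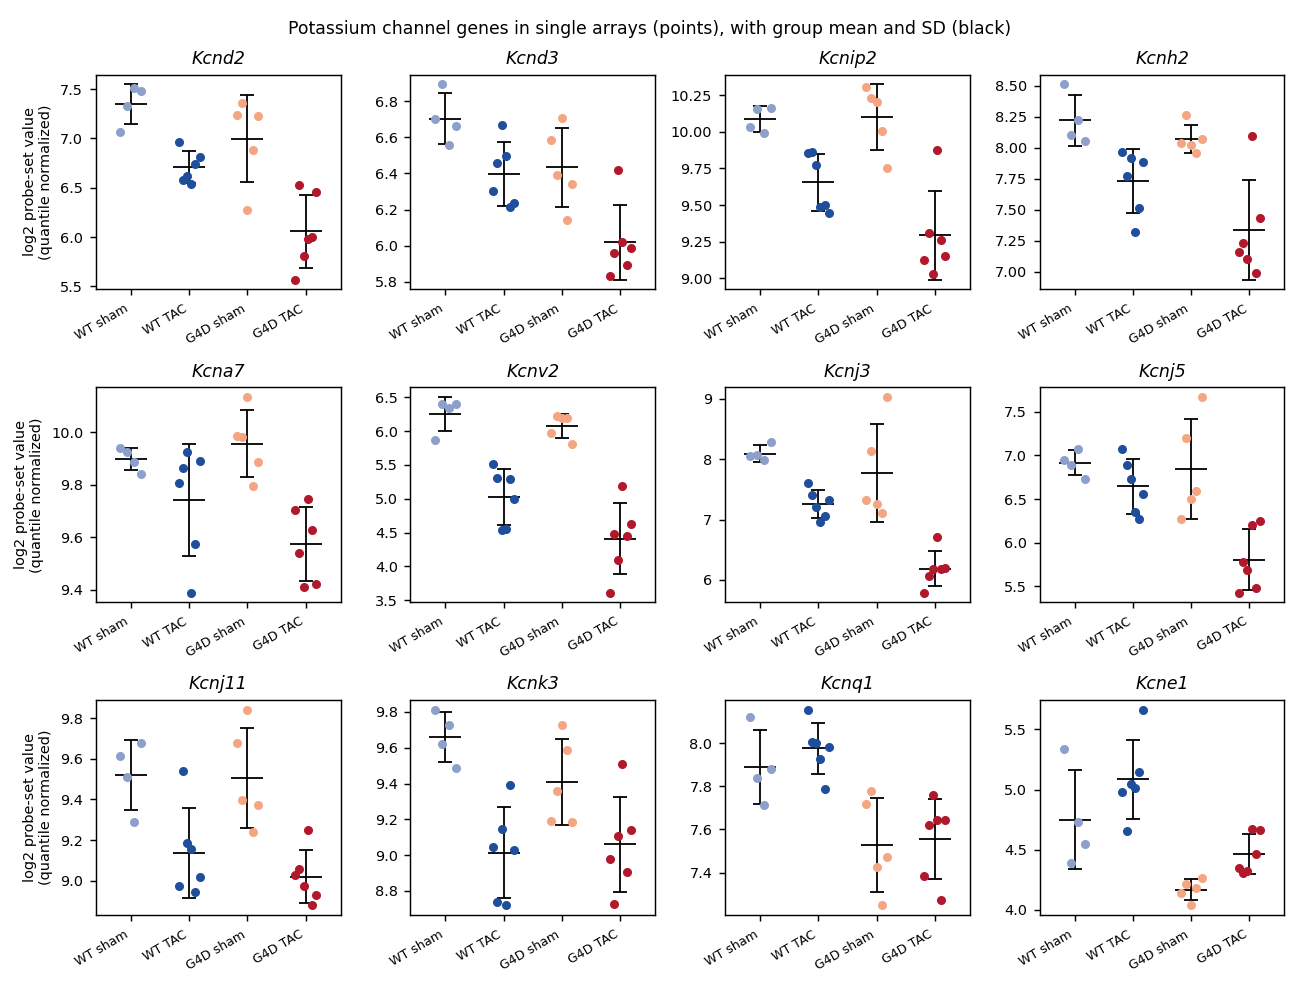
Quantile-normalized log2 level of 12 potassium channel genes in each of the 21 arrays by group, with the group mean and SD; levels of different genes are not comparable. Kcnv2 and Kcnj3 sit lower after TAC than after sham in both genotypes, with Kcnj3 at 9.03 in G4D sham sample 5, while Kcnq1 is lower in G4D than in wild type after TAC.

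Among the 7 tested inward rectifiers, 3 fell in G4D and 0 were called in wild type. Over all genes, 9.36% fell in G4D and 7.35% were called in wild type. Both Kcnj3 and Kcnj11 passed in wild type under some of the alternatives. Kcnj3, a pore subunit of the acetylcholine-activated channel, was at 7.11, 7.26, 7.32, 8.13 and 9.03 in G4D sham, and at 5.79 to 6.71 with a median of 6.19 after TAC. The 5 sham samples were widely spread, but all lay above all TAC samples. The change was -1.58 ± 0.25 (limma, adjusted p = 0.000112), or 2.99-fold lower. In wild type the samples were tighter, at 7.98, 8.05, 8.06 and 8.29 in sham and 6.97 to 7.61 after TAC, with a median of 7.27. These groups did not overlap either, yet -0.83 ± 0.27 missed the threshold (limma, adjusted p = 0.0625). Because all arrays share 1 estimate of the spread, the same -0.83 passed without G4D sham sample 5 (limma, adjusted p = 0.00707) and with both arrays of high atrial markers left out (adjusted p = 0.00936). Its other probe sets above the filter gave -1.31 and -1.69 in G4D.

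Kcnj5, the partner subunit of Kcnj3 in that channel, was at 6.27, 6.50, 6.59, 7.20 and 7.67 in G4D sham and at 5.43 to 6.25 with a median of 5.73 after TAC. The groups did not overlap, though the nearest samples were close. The change was -1.04 ± 0.22 in G4D (limma, adjusted p = 0.00138). In wild type the level was 6.73, 6.89, 6.95 and 7.08 in sham and 6.27 to 7.08 after TAC, with a median of 6.65. The wild-type groups overlapped, at -0.27 ± 0.23 (limma, adjusted p = 0.577). The highest Kcnj3 and Kcnj5 values of G4D sham were both in sample 5, the array with high atrial and adipocyte markers. Without it the G4D changes were -1.27 for Kcnj3 (limma, adjusted p = 5.7e-05) and -0.84 for Kcnj5 (adjusted p = 0.00404), and with both such arrays left out -1.27 and -0.92.

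Kcnj11, the pore of the sarcolemmal ATP-sensitive channel, was at 9.24, 9.37, 9.40, 9.68 and 9.84 in G4D sham and at 8.88 to 9.25 with a median of 9.00 after TAC. The highest TAC sample just reached the lowest sham sample, and the change was -0.48 ± 0.12 (limma, adjusted p = 0.00514). In wild type it was 9.29, 9.51, 9.61 and 9.68 in sham and 8.95 to 9.54 after TAC, with a median of 9.09. Those samples overlapped, at -0.38 ± 0.13 (limma, adjusted p = 0.07). The wild-type change passed with an intensity trend and robust prior (limma, adjusted p = 0.0452) and with array weights (adjusted p = 0.031). It also passed without wild-type TAC sample 2 (limma, adjusted p = 0.0196) or G4D sham sample 3 (adjusted p = 0.0473). The channel's regulatory subunit Abcc9, from a list of 22 channel partners and regulators, fell in wild type (-0.31 ± 0.07, limma, adjusted p = 0.0115) and in G4D (-0.46 ± 0.07, adjusted p = 7.98e-05). Kcnj8, the other pore subunit of this channel type and known chiefly from vessels, was at -0.10 ± 0.13 in wild type and -0.23 ± 0.12 in G4D (limma, adjusted p = 0.19), not called. Kcnj6, a neuronal G-protein-gated subunit, was at -0.16 ± 0.13 in G4D (limma, adjusted p = 0.412).

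Of the partner list, 16 genes were tested, and 2 rose and 2 fell in wild type, while 2 rose and 1 fell in G4D. Over all genes tested, 7.35% were called in either direction in wild type and 22.5% in G4D. The list was chosen with earlier results of these data known, so its counts are a description. Cttn, which encodes the actin-binding protein cortactin, rose by 0.46 ± 0.09 in wild type (limma, adjusted p = 0.0038) and 0.61 ± 0.09 in G4D (adjusted p = 4.22e-05). Flna, encoding the cross-linker filamin A, rose by 0.58 ± 0.14 in wild type (limma, adjusted p = 0.0119) and 0.40 ± 0.13 in G4D (adjusted p = 0.0291). Dlg1, a membrane scaffold, fell by 0.25 ± 0.08 in wild type (limma, adjusted p = 0.0496). Between the genotypes 0 of the 16 were called in sham or after TAC, against 0.0527% and 3.36% of all genes. Abcc9 after TAC was at -0.20 ± 0.07 (limma, adjusted p = 0.116).

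Of 7 tested tandem-pore background channels, 1 fell in wild type and 0 were called in G4D. Over all genes, 2.16% fell in wild type and 22.5% were called in G4D. Kcnk3, an acid-sensitive background channel, was at 9.49, 9.62, 9.73 and 9.81 in wild-type sham and at 8.72 to 9.39 with a median of 9.04 after TAC. All TAC samples were below all sham samples, and the change was -0.65 ± 0.15 (limma, adjusted p = 0.00956). With its 3 probe sets averaged the call was lost, at -0.46 (limma, adjusted p = 0.28). In G4D it was 9.19, 9.19, 9.36, 9.59 and 9.73 in sham and 8.73 to 9.51 after TAC, with a median of 9.04. Those groups overlapped, at -0.35 ± 0.14 (limma, adjusted p = 0.077), and the change was called without G4D TAC sample 4, at -0.44 (adjusted p = 0.0183). The difference between these responses was 0.30 ± 0.20, with a 95% interval of -0.12 to 0.72, so Kcnk3 was not shown to respond differently in the 2 genotypes. Kcnk2, a stretch-sensitive background channel, was at 0.31 ± 0.16 in wild type (limma, adjusted p = 0.28) and 0.28 ± 0.15 in G4D (adjusted p = 0.189), where it was called higher as deposited (0.67) and centred (0.46).

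None of the 6 tested calcium- or sodium-activated channel genes was called in the TAC comparisons. Over all genes, 7.35% were called in wild type and 22.5% in G4D. Of the 6, those farthest from 0 were Kcnn2, a small-conductance channel, at -0.33 ± 0.16 in G4D (limma, adjusted p = 0.145) and Kcnmb4, an accessory subunit of the large-conductance channel, at -0.26 ± 0.16 in wild type (adjusted p = 0.406). Of the accessory subunits, Kcne4 was at 0.33 ± 0.14 in wild type (limma, adjusted p = 0.182). The non-coding Kcnq1ot1, transcribed antisense within the Kcnq1 locus, was at 5.69, 5.69, 5.74, 5.82 and 6.05 in G4D sham and at 4.86 to 5.56 with a median of 5.38 after TAC. The G4D groups did not overlap, and the change was -0.48 ± 0.12 (limma, adjusted p = 0.00842). The 5 other probe sets of this RNA did not give a single direction, with 3 of opposite sign and 0 of these 3 at an unadjusted p under 0.05, and the mean over its probe sets gave -0.07. In wild type it was 5.42, 5.54, 5.58 and 5.82 in sham and 5.06 to 5.57 after TAC, with a median of 5.44. The wild-type groups overlapped, at -0.23 ± 0.13 (limma, adjusted p = 0.365). Kcnmb4os2, another non-coding RNA, was at -0.46 ± 0.20 in G4D (limma, adjusted p = 0.112).

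The scaling of the arrays set how many of these changes were called. On the values as deposited, the median of all genes was 0.31 in G4D TAC over sham, and 1 member was called higher (Kcnk2) and 2 lower (Kcnj3 and Kcnv2). With arrays centred on their medians that all-gene median was 0.10, and 2 members were called higher (Kcnk2 and Kcnk15) and 5 lower (Kcnd2, Kcnip2, Kcnj3, Kcnj5 and Kcnv2). The median over the 47 members in G4D, -0.21 after quantile normalization, turned to 0.084 as deposited and was -0.12 when centred, which is -0.22 relative to the median of all genes. Centring shifts whole arrays, so the relative values are by construction the same as deposited and centred. On that relative scale Kcnj3 was at -1.50, Kcnv2 at -1.69, Kcnd2 at -0.90 and Kcnip2 at -0.68. The calls of Kcnd3, Kcnh2, Kcnj11, Kcna7, Kcnh8 and Kcnq1ot1 in G4D and those of Kcnd2 and Kcnk3 in wild type were lost under both. In wild type the changes stayed as large, with Kcnd2 at -0.70 as deposited and -0.64 centred, and Kcnk3 at -0.75 and -0.68. Kcnh8 in G4D was at 0.69 and 0.49. Those of Kcnd3 (-0.077 and -0.28), Kcnh2 (-0.32 and -0.53), Kcnj11 (-0.047 and -0.25) and Kcnq1ot1 (-0.20 and -0.41) were smaller, against the raised all-gene median.

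**Figure D3:**
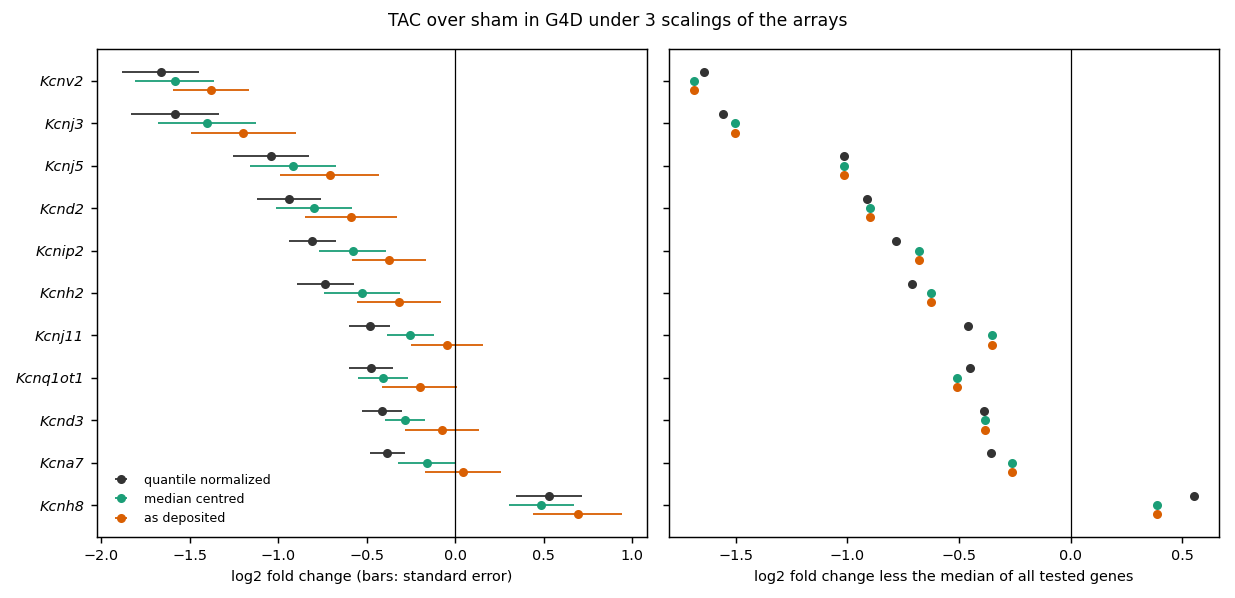
Log2 fold change of TAC over sham in G4D for the 11 members called there, under quantile normalization, median centring and the values as deposited, with standard errors on the left and less the median of all genes on the right. On the left the values as deposited lie highest, with Kcna7 at 0.045, and on the right all but Kcnh8 lie below 0 under each scaling.

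The comparison of G4D with wild type asked how the genotypes differ after each operation. After sham operation 0 of the 47 members were called by limma, against 0.0527% of all genes (7 genes). At an unadjusted p under 0.05 there were 3 members, all lower in G4D, against 8.08% of all genes. After TAC, 5 of 47 members were lower in G4D and 0 higher: Kcnj3, Kcnj5, Kcnd2, Kcnq1 and Kcne1. Of all genes tested, 3.36% were called in either direction and 1.27% were lower, against 10.6% of the members. In 4 members, or 8.51%, every G4D sample lay below every wild-type sample after TAC, against 0.828% of all genes. The sham and TAC comparisons share no arrays, but all arrays were normalized together and share 1 estimate of the spread. All 5 members also had a log2 fold change below 0 in sham, from -0.58 for Kcne1 to -0.07 for Kcnj5. How often this held over all genes lower after TAC was not computed, so it is a description. The median over the 47 members was -0.01 in sham and -0.04 after TAC, against -0.01 over all genes in both. As deposited, the member median after TAC was 0.073, under an all-gene median of 0.14.

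Kcnq1, the pore subunit of the slow delayed rectifier, was lower in G4D after TAC. Its level after TAC was 7.79 to 8.15 with a median of 7.99 in wild type, and 7.27 to 7.76 with a median of 7.63 in G4D. These groups did not overlap, and the difference was -0.42 ± 0.10 (limma, adjusted p = 0.0251). In sham it was 7.71, 7.84, 7.88 and 8.12 in wild type and 7.25, 7.42, 7.47, 7.72 and 7.78 in G4D. The sham groups overlapped, at -0.36 ± 0.12 (limma, adjusted p = 0.364). TAC itself left it at 0.09 ± 0.11 in wild type and 0.03 ± 0.11 in G4D, neither called.

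Kcne1, the accessory subunit that gives the Kcnq1 channel its slow opening, lay close to the filter. After TAC it was at 4.66 to 5.66 with a median of 5.03 in wild type, and at 4.31 to 4.67 with a median of 4.41 in G4D. The ranges met at their ends, and the difference was -0.62 ± 0.15 (limma, adjusted p = 0.022). In sham it was 4.39, 4.55, 4.73 and 5.33 in wild type and 4.04, 4.14, 4.18, 4.22 and 4.26 in G4D. All 5 G4D samples were below all wild-type samples, but -0.58 ± 0.17 did not pass over all genes (limma, adjusted p = 0.282). The G4D sham mean of 4.17 was under the level of the filter. With TAC it was at 0.33 ± 0.16 in wild type and 0.29 ± 0.15 in G4D, not called in either. Kcne3, another accessory subunit of this family, was at -0.44 ± 0.23 in G4D sham (limma, adjusted p = 0.67).

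Kcnj3 was lower in G4D after TAC by 1.07 ± 0.24 on the log2 scale (limma, log2 fold change -1.07, adjusted p = 0.0135), with every G4D sample below every wild-type sample. In sham the difference was -0.32 ± 0.28 (limma, adjusted p = 0.84), or -0.64 without G4D sham sample 5 (adjusted p = 0.316). Kcnj5 was lower after TAC as well, at -0.84 ± 0.21 (limma, adjusted p = 0.0251), again without overlap, and was at -0.07 ± 0.24 in sham. With both arrays of high atrial markers left out, the differences after TAC were -1.08 for Kcnj3 (limma, adjusted p = 0.00192) and -0.93 for Kcnj5 (adjusted p = 0.00566). The Kcnj5 call was lost with its probe sets averaged, at -0.65 (limma, adjusted p = 0.0854), and with median centring, at -0.83 (adjusted p = 0.0814).

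Kcnd2 was at -0.65 ± 0.17 in G4D against wild type after TAC (limma, adjusted p = 0.0392), and the 6 G4D samples lay below the 6 wild-type samples. In sham it was at -0.35 ± 0.20 (limma, adjusted p = 0.693), with overlapping samples. Kcnd3 after TAC was at -0.38 ± 0.11 (limma, adjusted p = 0.0661) and Kcnip2 at -0.36 ± 0.13 (adjusted p = 0.151), neither called. Kcnv2 after TAC was at -0.62 ± 0.21 (limma, adjusted p = 0.124) and Kcnh2 at -0.39 ± 0.15 (adjusted p = 0.212).

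Which array was included decided how many members differed after TAC. The count was 1 without G4D TAC sample 1, 2 without wild-type TAC sample 1, 2 or 3 or G4D TAC sample 5, 3 without wild-type TAC sample 6 or G4D TAC sample 2, and 7 without G4D TAC sample 4. Kcnj3 was called in all 21 of these fits, Kcne1 in 18, Kcnq1 in 16, Kcnj5 in 14 and Kcnd2 in 12. G4D TAC sample 4 was the highest of its 6 for 7 of the 10 members that fell in G4D. Its fibroblast marker mean of 9.77 and its deposited median of 4.37 were the lowest of its group. So was its correlation with the rest of the group, 0.928 on the deposited values. The part of these traits in the calls was not tested. Without G4D TAC sample 4, Kcnh2 was at -0.55 (limma, adjusted p = 0.00914), Kcnip2 at -0.48 (adjusted p = 0.0101) and Kcnv2 at -0.78 (adjusted p = 0.0213), all called lower in G4D. Sample 4 was the highest of its group for Kcnh2, Kcnip2 and Kcnv2, so lower values without it follow by construction. In the same fit the call of Kcnd2 was lost, at -0.64 (limma, adjusted p = 0.0534). On the values as deposited 0 members were called after TAC, and with median centring 2 were (Kcne1 and Kcnj3). The differences as deposited were -0.93 for Kcnj3, -0.71 for Kcnj5, -0.52 for Kcnd2, -0.51 for Kcne1 and -0.25 for Kcnq1, against an all-gene median of 0.14.

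**Figure D4:**
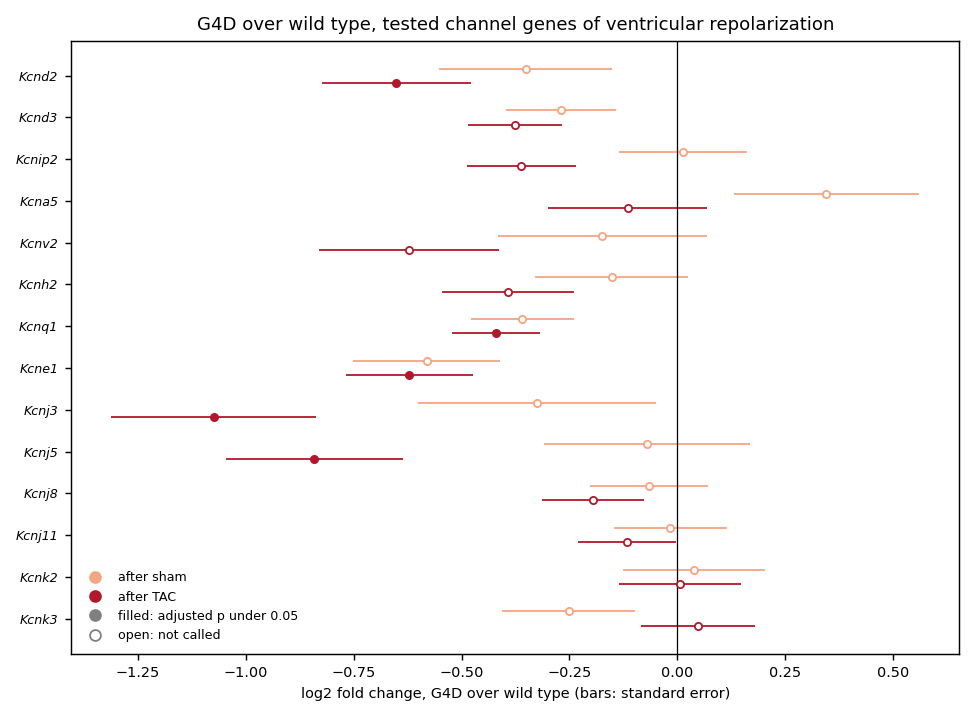
Difference between G4D and wild type, as a log2 fold change, in sham and after TAC for the 14 tested genes of the ventricular repolarization list, with standard errors; filled points passed an adjusted p of 0.05 in limma. The 5 filled points, all after TAC, are Kcnj3, Kcnj5, Kcnd2, Kcnq1 and Kcne1, between -1.07 and -0.42.

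The test of whether the response to TAC differed between the genotypes called 0 of 47 members by limma, against 0.0151% of all genes (2 genes). At an unadjusted p under 0.05 there were 2 members, against 8.36% of all genes. These were Kcnh8, at 0.78 ± 0.27 (limma, adjusted p = 0.382), and Kcnj5, at -0.77 ± 0.31 (adjusted p = 0.477). Kcnj3 was at -0.75 ± 0.36 (limma, adjusted p = 0.603), with a 95% interval of -1.51 to 0.01. For Kcnv2 the interval was -1.11 to 0.22, and for Kcnd2 it was -0.85 to 0.25. The larger number of members called in G4D than in wild type was thus not shown, gene by gene, to be a larger response. Kcna5 was at -0.46 ± 0.28 in this test (limma, adjusted p = 0.708) and Kcnk13, a tandem-pore channel, at 0.43 ± 0.31 (adjusted p = 0.766).

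The 19 genes of the ventricular repolarization list were chosen with earlier results of these data known, so their counts are a description. The list includes Kcnj3 and Kcnj5, known chiefly from the atria and the sinus node, and the silent subunit Kcnv2. These had the largest falls of the list with TAC in G4D (-1.58, -1.04 and -1.66). The counts thus do not describe ventricular channels alone. Of the 19 genes, 14 were tested. With TAC, 3 of these 14 fell in wild type and 8 in G4D. After TAC, 5 were lower in G4D than in wild type, and 0 were higher in each comparison. Of all genes, 2.16%, 9.36% and 1.27% were lower in these comparisons. The list's median log2 fold changes were -0.35, -0.45 and -0.38, against -0.02, -0.02 and -0.01 over all genes. In sham they had a median of -0.16, with 0 called. The other 5 lay under the filter. Kcnj2, the main inward rectifier subunit that sets the resting potential, averaged 3.39 in wild-type sham, 3.16 in wild-type TAC, 3.44 in G4D sham and 2.93 in G4D TAC. Kcnj12, its paralog, averaged 4.40, 4.18, 4.11 and 3.84 in the same order. Kcna4, the pore subunit of the slow transient outward current, averaged 4.25, 4.36, 4.21 and 4.31. The beta subunits averaged 3.97, 3.95, 4.19 and 4.04 for Kcnab1 and 2.85, 3.15, 3.14 and 3.12 for Kcnab2. With no filter, 2 of the 37 members under it were called, both with TAC in G4D, and these 5 were not. Kcnj16, an inward rectifier subunit, was then at -0.52 ± 0.16 (limma, adjusted p = 0.0389), with means of 4.34 in G4D sham and 3.82 in G4D TAC. Kcns2, a silent subunit, was at 0.57 ± 0.16 (limma, adjusted p = 0.0218), with means of 3.87 and 4.44. Of these means of Kcnj16 and Kcns2, all but that of Kcns2 after TAC lay under the filter's level of 4.35.

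By role, voltage-gated pore subunits had a median log2 fold change with TAC of -0.16 in wild type and -0.32 in G4D, over 16 genes. Inward rectifiers had medians of -0.10 and -0.23 over 7 genes, and silent subunits -0.34 and -0.35 over 3. Tandem-pore channels, with medians of -0.04 and 0.06 over 7 genes, and calcium- or sodium-activated channels, with -0.03 and -0.03 over 6, lay nearer the all-gene median of -0.02. Kcnk5, a tandem-pore channel sensitive to alkaline pH, was at -0.50 ± 0.41 in G4D sham (limma, adjusted p = 0.833). In all, 14 members were called in at least 1 comparison, and 13 of them were lower wherever they were called.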

How the data were processed

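Probe-set values of 21 arrays were deposited by the authors as log2 values, and the tool that made them, PLIER, is named in the submitters' processing notes. The log2 scale was read from the values, since no header names it. The background correction, normalization and version are not given in the sources used here. The array's annotation gave 34945 of 45101 probe sets 1 gene symbol, 932 several and 9160 none, beside 64 controls, and only the first kind was used. The arrays were quantile normalized and the brightest probe set per gene was kept. Genes under the 40th percentile of mean level (4.35) were left out. All 21 arrays entered 1 limma fit (version 3.58.1, R 4.3.3, 17 residual degrees of freedom) with 5 contrasts, which was tested on simulated data. P-values were adjusted over 13279 genes by Benjamini and Hochberg's method, and 0.05 was the threshold for a call. The number of arrays limits the precision.

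The members, roles and lists were chosen with earlier results of these data known. The text names every member called, every gene of the repolarization list, per role up to 2 uncalled members with the largest changes, called partners with Abcc9, and Gata4. A further gene of the repolarization list is not reported here. Roles follow the symbol's start, with 3 non-coding RNAs set apart. Alternatives were the scaling, filter, floor, probe-set choice, variance model, array weights, replicate block and each array left out. Leaving out the arrays with high atrial markers was chosen after seeing the data.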

Additional observations from a re-analysis of the deposited data

Results flagged for a closer look

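Of 68 combinations of a gene and a group examined (17 genes), 4 held a sample far from the others by Dixon's test at the 95% level, which chance gives in about 1 in 20 groups. Kcnip2 was at 9.88 in G4D TAC sample 4, with the next sample at 9.31. Kcnd3 was at 6.42 in G4D TAC sample 3, with the next at 6.02. Kcnh8 was at 5.10 in G4D TAC sample 1, with the next at 4.75. Kcnv2 was at 5.87 in wild-type sham sample 1, below the other samples, of which the nearest was at 6.33. The first 3 were the highest of their group.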

How the results depend on the processing

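The main counts of members called were 3 in the wild-type response to TAC, 11 in the G4D response and 5 for genotype after TAC. On the values as deposited they were 1, 3 and 0, and with median centring 1, 7 and 2. With array weights they were 7 in wild type and 9 for genotype after TAC, and with an intensity trend and robust prior 5 in wild type. The called fall of Kcna7 in G4D turned to 0.045 on the values as deposited, where all genes had a median of 0.31. Leaving out 1 array at a time gave 2 to 4 in wild type, 10 to 12 in G4D, 1 to 7 for genotype after TAC, and 0 to 0 in sham and for the difference between responses. With the replicate number as a block, 3 members were called for genotype after TAC, 2 in wild type and 11 in G4D, without Kcnd2 (wild type and genotype) and Kcnj5 (genotype). Same-numbered samples had a median correlation of -0.07 over 28 pairs, 9 of them above 0.1. Samples of different number had -0.01 over 136 pairs, 52 of them above 0.1. No pairing by number was seen, but such correlations cannot exclude one. Other filters, the floor, averaged probe sets and leaving out the arrays with high atrial markers kept each count within 1.5 times. Low signal limits the untested members, Kcne1 and Kcnh8, and the level of Kcnv2 after TAC in G4D.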
